A study of Mus musculus with 7 samples.

Results

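Eln, Fbln2, Fbln5, Mgp, Col18a1, Fbn1, Emilin1 and Cytl1 are 8 genes of the elastic fibre and of the matrix of the arterial wall. They were taken by gene symbol from the 32285 genes counted in the series, and each symbol stood on 1 line of the count tables. The data are 7 single-cell libraries, each prepared from 1 brain hemisphere of 1 untreated wild type mouse of the inbred strain C57Bl6, without brain stem, olfactory bulbs and cerebellum. The groups were mice aged 12 months, with 3 libraries, and mice aged 3 months, with 4 libraries. After collagenase digestion, cells were pulled out with beads that carry an antibody to CD31, a surface protein of endothelial cells, so smooth muscle cells and pericytes were in the data only as far as they came along with that capture. The libraries of the ages also differ in index type (single at 12 months, dual at 3 months), in the version of the counting software and in depth, and these cannot be told apart from age.

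Elastic fibres give arteries their recoil. Elastin is secreted as a soluble monomer, is gathered on microfibrils of fibrillin with the help of fibulins, and is then cross-linked by lysyl oxidases into fibres that last for most of an animal's life. In the vessel wall elastin is laid down by smooth muscle cells and by the endothelium of arteries, while capillaries, which pericytes cover, have a basement membrane and no elastic layer. Most members lie on the minus strand of GRCm38, per the GENCODE vM21 annotation: Eln on chromosome 5 from 134702593 to 134747323, Fbn1 on chromosome 2 from 125300594 to 125507993, Fbln5 on chromosome 12 from 101746565 to 101819055, Mgp on chromosome 6 from 136872435 to 136875823 and Col18a1 on chromosome 10 from 77052178 to 77166548. Fbln2 (chromosome 6, 91212455 to 91272540), Emilin1 (chromosome 5, 30913402 to 30921277) and Cytl1 (chromosome 5, 37735519 to 37739820) lie on the plus strand. An exon of Eln overlaps the antisense gene Gm30003, and an exon of Fbn1 overlaps Gm9913 on the other strand. The sources used here do not state whether strand was used in counting, so reads of these pairs may not be told apart.

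After filtering, 37134 cells remained, between 3797 and 8916 in a library. The 12-month libraries held median UMIs per cell of 1094, 2783 and 1808, and the 3-month libraries 3082, 5334, 4533 and 4937, so the 12-month libraries were shallower. UMI stands for unique molecular identifier, a tag that counts each captured mRNA once, and a level below is given in CPM, the UMIs of a gene scaled to the UMIs of all genes in the cells summed. Any pair of libraries shared between 1 and 15 cell barcodes. Cells were grouped into classes by other genes: neither the 8 genes nor the lists of pathway genes below had a part in forming clusters, although genes that move with them did. None of the 8 served to name a cluster, but 4 genes of the pathway lists were also markers, Vtn of pericytes and Col1a1, Col1a2 and Col3a1 of fibroblasts. The endothelial classes ran along the vessel from large-artery cells (736) through other arterial cells (2684), arteriolar cells (3868) and capillary cells (13731) to venous cells (2006). Smooth muscle cells numbered 1224 and pericytes 751, of which 27 came from 12-month replicate 1. An endothelial class of 4168 cells kept the name of its leading gene, Olfm5, and fenestrated endothelium, which lacks the blood-brain barrier, had 1312 cells. A further 256 cells led by the collagen-binding proteoglycan Dcn carried fibroblast and pericyte markers and kept the name of their leading gene. A cluster of 290 cells led by Rgs5, with a median of 2.85 times the UMIs of cells in their own library, carried arterial, smooth muscle and pericyte markers together and was left without a name. It held between 5.88% (Emilin1) and 11.9% (Fbn1) of the UMIs of each of the 8 genes and enters no comparison.

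The borders between the endothelial classes depend on fine rounding in the computation. When the same clustering was repeated with another arithmetic kernel of the linear algebra library, an alternative added after a repeat run was seen to differ, 98.9% of venous cells stayed together. Of the large-artery cells, 62.6% fell in a cluster of 942 cells led by Fbln5 and 37.4% in one led by S100a6, while no arteriolar class formed. The Fbln5-led cluster held 461 large-artery and 480 other arterial cells, and the S100a6-led cluster 275 large-artery and 594 other arterial cells. Of other arterial cells, 52.2% joined a cluster led by Hey1. The border between large-artery and other arterial cells was thus drawn elsewhere. Results that this repeat changed are named where they are given.

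The summed level of 10 endothelial markers was 12039.3 to 14980.4 CPM at 12 months and 12190.3 to 14901.5 CPM at 3 months in large-artery cells, with none of the 10 at 0. Smooth muscle markers summed to 296 to 512 CPM at 12 months and 341 to 2468 CPM at 3 months in large-artery cells, against 35639.8 to 57560.9 CPM in smooth muscle cells. In pericytes, endothelial markers summed to 5529 to 11773 CPM at 12 months and 9517 to 11226 CPM at 3 months, beside their own markers at 13411 to 34105 CPM. Fibroblast markers in large-artery cells summed to 73.8 to 156 CPM at 12 months, with 3 to 6 of 10 at 0, and 153 to 250 CPM at 3 months, with 5 to 7 at 0. What these carried-over transcripts add to the levels below was not tested, except where a value without marker-bearing cells is given. That check left out endothelial cells with a UMI of a smooth muscle, pericyte or fibroblast marker. Of smooth muscle cells and pericytes it left out only those with a UMI of a fibroblast marker. No cell was left out for microglia markers, and no smooth muscle cell or pericyte for endothelial markers.

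Eln, the gene of elastin, was highest in large-artery endothelial cells. Its level there was 1212, 935 and 807 CPM in the 12-month libraries, against 930, 1129, 1173 and 1039 CPM in the 3-month libraries. Every library of either age was thus far above the 80.7 to 134 CPM of Eln in the other arterial cells at 12 months and the 76.2 to 126 CPM at 3 months. Averaged over the 7 libraries, Eln stood at 1032 ± 148 CPM in large-artery cells, 103 ± 23.3 in other arterial, 16.3 ± 8.86 in arteriolar, 22.0 ± 6.21 in capillary and 74.2 ± 14.4 in venous cells (SD). The level therefore fell along the arterial tree, lay lowest in arteriolar and capillary cells, whose spreads overlap, and was higher again in veins and in the fenestrated endothelium (86.5 ± 21.4 CPM), which again do not differ beyond their spread. Smooth muscle cells held 268 ± 93.5 CPM of Eln and pericytes 6.63 ± 7.31 CPM, with no Eln UMI in pericytes of 1 library of each age. In microglia, which are not known to make elastin, 4.10 ± 5.72 CPM were counted, from 13 UMIs. Microglia values serve here and below as a background level, and their source was not tested.

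Fbn1 codes for fibrillin-1, the main protein of the microfibrils on which elastin is deposited. It was the least counted member, with 830 UMIs in the whole series. Large-artery cells held 59.4 ± 17.7 CPM, other arterial cells 22.2 ± 6.49, arteriolar cells 2.85 ± 3.02, capillary cells 0.164 ± 0.176 and venous cells 0.371 ± 0.336 CPM of Fbn1. Smooth muscle cells were at 6.64 ± 4.01 CPM and pericytes at 0.683 ± 1.19 CPM, where 5 of 7 libraries had no UMI. Unlike Eln, Fbn1 was lower in smooth muscle cells than in arterial endothelium in every library.

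Fbln5, the gene of fibulin-5, which binds both elastin and integrins and is needed for elastic fibre assembly in mice, was concentrated in large-artery cells and led their cluster although it had no part in forming it. These cells, 736 of 37134, held 76.0% of the 5885 Fbln5 UMIs in the series. The levels were 1514, 1053 and 1100 CPM at 12 months, against 1261, 1381, 1321 and 2239 CPM at 3 months. The ages overlapped, and 3-month replicate 4 was far above the others. Other arterial cells held 36.5 ± 18.7 CPM of Fbln5, and arteriolar, capillary and venous cells held 0.760 ± 0.665, 0.608 ± 0.648 and 0.807 ± 0.729 CPM, which do not differ beyond their spread from each other or from microglia (0.671 ± 0.795 CPM). Smooth muscle cells were at 12.8 ± 11.7 CPM.

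Fbln2 codes for fibulin-2, found in elastic fibres and basement membranes. It fell less steeply along the arterial tree than Fbln5: 379 ± 71.7 CPM in large-artery cells, 246 ± 46.3 in other arterial, 65.9 ± 18.8 in arteriolar, 3.93 ± 1.34 in capillary and 3.44 ± 1.54 CPM in venous cells. The last 2 do not differ beyond their spread from Fbln2 in microglia (3.91 ± 8.01 CPM), a value that rests on 9 UMIs. Other arterial cells held 41.9% of its UMIs. Fenestrated endothelium held 47.5 ± 19 CPM of Fbln2, smooth muscle cells 14.8 ± 9.18 and pericytes 6.39 ± 7.66 CPM.

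Emilin1 codes for a glycoprotein at the interface of elastin and microfibrils, and its mean was higher in smooth muscle cells (65.4 ± 11.8 CPM) than in any endothelial class, although single libraries overlapped with large-artery cells. Smooth muscle cells held 46.8, 60.6 and 72.2 CPM at 12 months, against 64.6, 77.4, 56.5 and 79.7 CPM at 3 months. Large-artery cells held 44.2, 28.1 and 42.2 CPM of Emilin1 at 12 months, against 27.1, 47.8, 16.8 and 23.7 CPM at 3 months. Within both classes the ages overlapped. Pericytes (33.5 ± 18.7 CPM) and fenestrated endothelium (29.4 ± 22.6 CPM) did not differ in Emilin1 beyond their spread from large-artery cells (32.8 ± 11.8 CPM). Other arterial cells, at 1.09 ± 1.27 CPM, were no higher than microglia at 2.25 ± 1.88 CPM. Emilin1 was thus not detectable above that background in other arterial cells at this depth. The Dcn-led class held 164 CPM of Emilin1 in the 1 library at 12 months with at least 20 such cells, against 32.5 to 91.5 CPM in the 4 libraries at 3 months.

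Mgp codes for matrix Gla protein, a vitamin K dependent inhibitor of calcification in arteries, and held 75321 UMIs. Large-artery cells were at 11056, 7112 and 8221 CPM at 12 months, against 11448, 7645, 9890 and 9529 CPM at 3 months, with full overlap of the ages. Other arterial cells held 1201 ± 558 CPM of Mgp, arteriolar cells 104 ± 106, capillary cells 21.1 ± 21.5 and venous cells 174 ± 116 CPM. Smooth muscle cells (1704 ± 816 CPM) and pericytes (913 ± 499.9 CPM) overlapped in their spread over all libraries. With the library as a term, Mgp was called higher in smooth muscle cells (log2 difference 1.25, given below). The Dcn-led class held 5513 CPM of Mgp in 1 library at 12 months, against 2048 to 6571 CPM at 3 months. The microglia value of Mgp was 16.1 ± 15.9 CPM, so the level in capillary cells was not above that background beyond its spread.

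Col18a1 codes for collagen XVIII, a basement membrane collagen whose end fragment is endostatin. Arterial endothelium and smooth muscle both held it: 265 ± 52.9 CPM in large-artery cells, 116 ± 40.0 in other arterial cells and 179 ± 42 CPM in smooth muscle cells. Arteriolar cells were at 18.4 ± 5.24 CPM of Col18a1, and capillary cells (0.976 ± 0.312), venous cells (0.880 ± 0.626) and pericytes (3.72 ± 3.75 CPM) did not stand above microglia (1.53 ± 1.96 CPM) beyond their spread. Cytl1, a small secreted cytokine-like protein, had the largest share of its UMIs in large-artery cells. Large-artery cells held 84.3% of the 2967 Cytl1 UMIs, at 1370, 772 and 795 CPM at 12 months, against 986, 369, 607 and 641 CPM at 3 months. The ages overlapped in Cytl1 there, and smooth muscle cells held 7.36 ± 4.77 CPM.

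**Figure D1:**
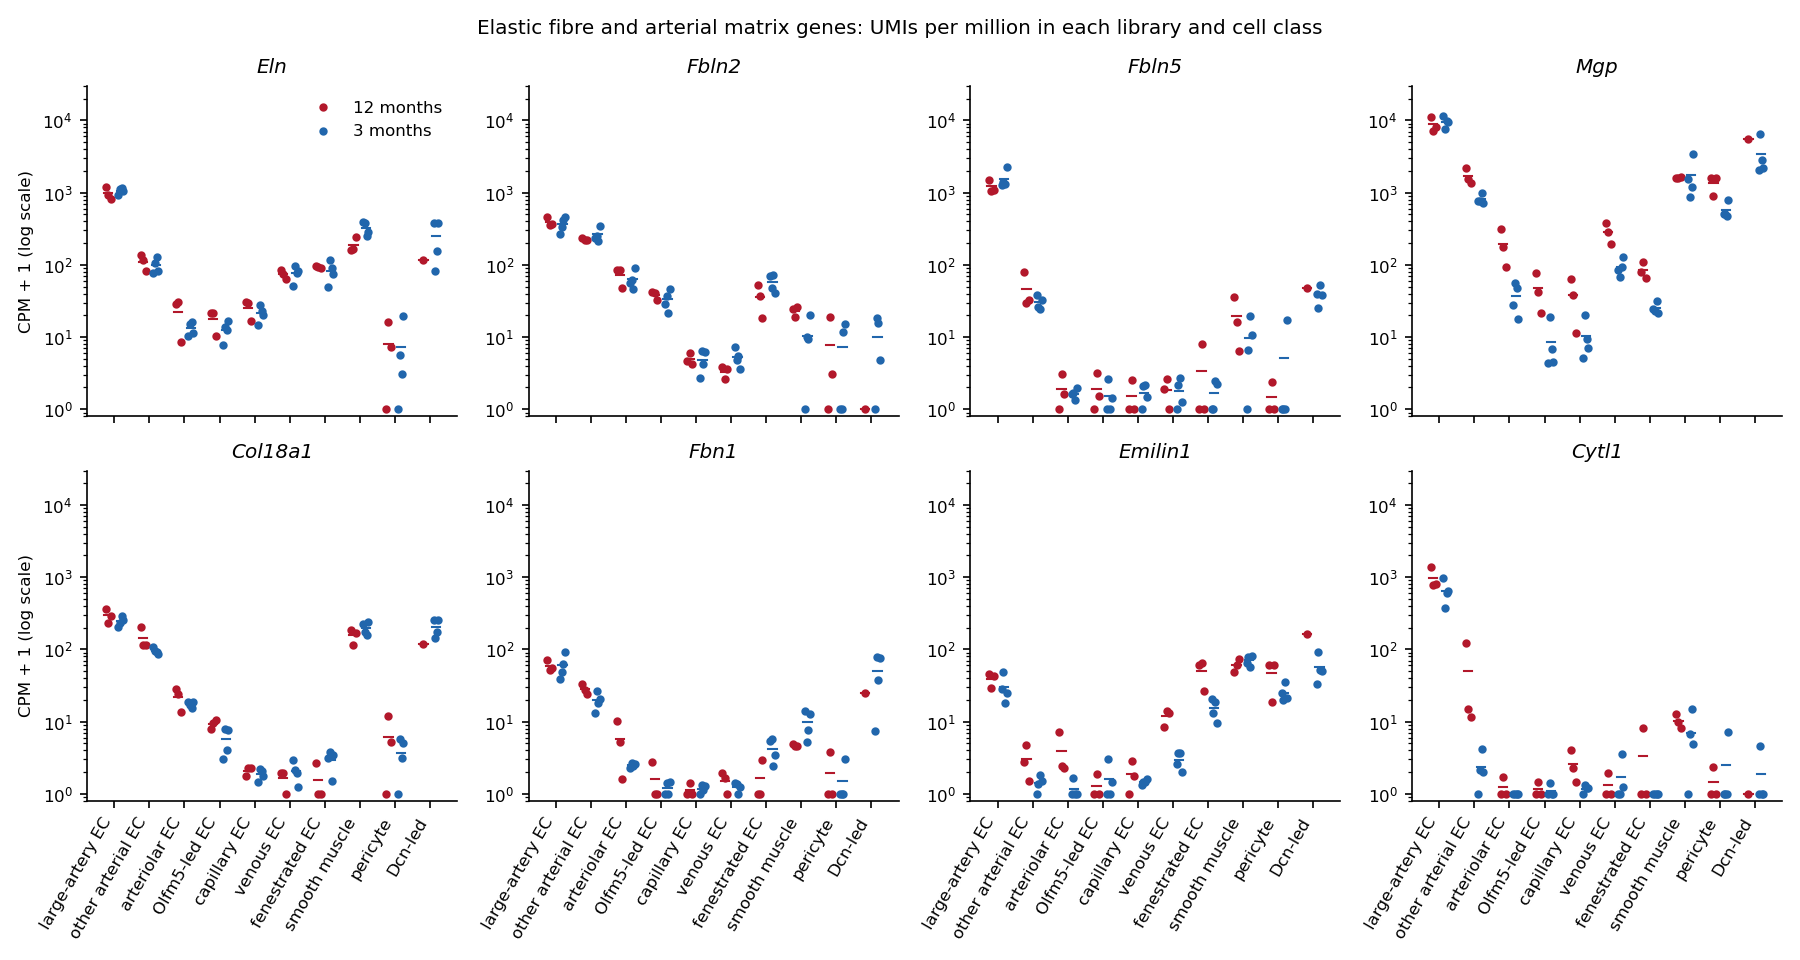
CPM + 1 (log axis) of the 8 genes in 10 cell classes, one point per library, 12 months left of 3 months, with a bar at the mean of each age; EC stands for endothelial cells. All 8 genes are higher in large-artery than in other arterial cells, and Emilin1 and Mgp stand high in smooth muscle cells and pericytes too. The Dcn-led class has 1 library at 12 months with at least 20 cells.

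The genes were also seen together in the same cells. Each cell was thinned to 1000 UMIs, which left out 83 of 736 large-artery cells and 500 of 2712 microglia with fewer. At that depth, 79.8% of large-artery cells held UMIs of at least 2 of the 8 genes and 61.3% of at least 3. The share with at least 2 was 21.9% in other arterial cells, 1.51% in arteriolar cells, 0.136% in capillary cells and 2.13% in venous cells. Smooth muscle cells were at 17.4%, pericytes at 3.93% and microglia, as background, at 0.0452%. Without thinning the shares were 93.5% in large-artery cells (median 2640 UMIs) and 0.184% in microglia (median 1890 UMIs). Mgp was seen in 85.7% of thinned large-artery cells, against 1.88% of microglia, and Fbln5 in 57.1%, against 0.0157% (means over the 7 libraries).

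**Figure D2:**
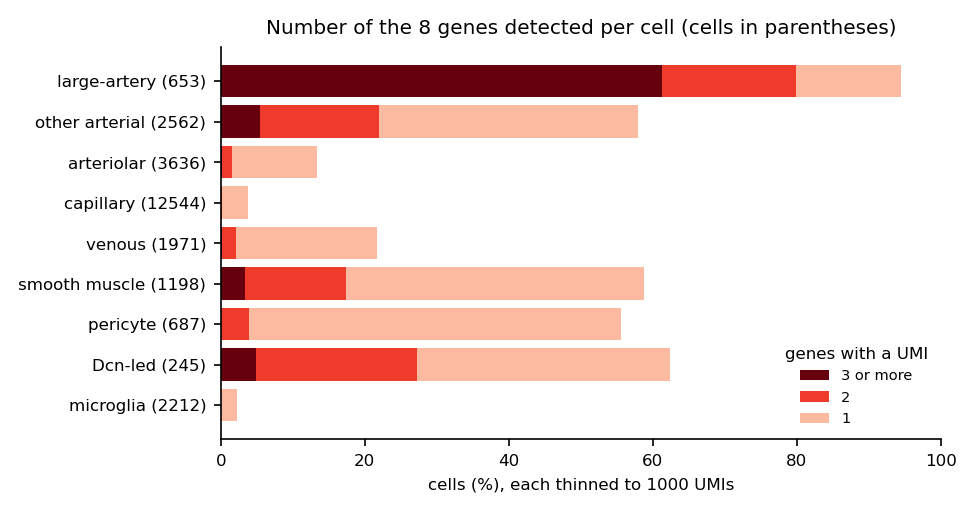
Share of cells (%) with UMIs of 1, 2 or at least 3 of the 8 genes, by class, over all libraries, each cell thinned to 1000 UMIs. Large-artery cells reach 79.8% with at least 2 genes, against 21.9% in other arterial cells and 0.0452% in microglia.

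Differences between classes were tested with edgeR's quasi-likelihood test on UMIs summed per library and class, with the library as a term and Benjamini-Hochberg adjustment over all genes tested. Between arterial and capillary endothelial cells, Eln, Fbln2, Fbln5, Mgp, Col18a1, Fbn1 and Cytl1 passed the filter on low counts and were all higher in arterial cells, where 22.1% of 10422 genes were called higher. Eln was at 202 to 598 CPM in arterial cells and 13.5 to 29.1 CPM in capillary cells over the 7 libraries, a log2 difference of 3.76 (SE 0.12, adjusted p = 1.93e-14). Fbln5 had the largest difference of the 7, at 8.49 (SE 0.22, adjusted p = 6.65e-16), followed by Cytl1 at 8.31 (SE 0.17). Mgp differed by 7.53, Fbn1 by 7.0, Col18a1 by 6.96 and Fbln2 by 6.09 on the log2 scale. Emilin1 did not pass the filter, at 8.58 ± 5.47 CPM in arterial and 0.632 ± 0.582 CPM in capillary cells. Without cells that carried a UMI of a smooth muscle, pericyte or fibroblast marker, 6 members could be tested. All 6 stayed called, Eln at 3.26, Mgp at 6.45 and Fbln5 at 6.72. With the clustering repeated on another kernel all 7 stayed called, Eln at 3.17 and Fbln5 at 7.86.

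Within the arterial cells, the same 7 genes were higher in large-artery than in other arterial cells, where 12.9% of 6780 genes were called higher. Cytl1 (log2 difference 6.18, SE 0.31, adjusted p = 1.24e-16) and Fbln5 (5.49, SE 0.14) separated the pair of classes most. Eln (3.43, SE 0.10) and Mgp (3.14, SE 0.16) came next, then Fbn1 (1.49, SE 0.18), Col18a1 (1.33, SE 0.10) and Fbln2 (0.71, SE 0.09, adjusted p = 2.35e-07). Emilin1 was above other arterial cells in every library, 16.8 to 47.8 CPM in large-artery cells and 0 to 3.68 CPM in other arterial cells, but did not pass the filter. A single fibroblast marker is given for this contrast: Col3a1, a fibrillar collagen of the outer wall, was at 86.8 ± 51.0 CPM in large-artery and 0.0658 ± 0.174 CPM in other arterial cells. Several other markers of that list were at 0 in large-artery cells, as given above. Without marker-bearing cells only the 3 libraries at 12 months kept 20 cells of both classes, so that check covers 1 age; in them all 7 calls held, Eln at 3.01, Fbln2 at 1.23 and Mgp at 2.39. All 7 held in the repeated clustering too, with Fbln2 at 1.5, Fbn1 at 2.61 and Cytl1 at 5.31. At resolution 1.0 Col18a1 was at 0.63 (adjusted p = 2.72e-04).

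In veins, Eln and Mgp were higher than in capillaries, where 19.4% of 10985 genes were called higher. Eln was at 84.1, 72.7 and 61.7 CPM in venous cells at 12 months and at 50.7, 94.0, 75.1 and 81.0 CPM at 3 months, against 29.1, 28.3 and 15.5 CPM in capillary cells at 12 months and 13.5, 26.4, 22.2 and 19.3 CPM at 3 months. The classes did not overlap, and the log2 difference was 1.83 (SE 0.08, adjusted p = 1.55e-12, edgeR's quasi-likelihood test with Benjamini-Hochberg adjustment). Mgp was higher by 3.30 (SE 0.22, adjusted p = 2.56e-10). Fbln2 was tested too and was not called, at -0.10 (SE 0.29, adjusted p = 0.815), but was lower in venous cells in the repeated clustering (-0.86, adjusted p = 0.0110). Fbln5, Col18a1, Fbn1, Emilin1 and Cytl1 did not pass the filter in this contrast.

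Between smooth muscle cells and arterial endothelium all 8 members could be tested, and they divided. Emilin1 was higher in smooth muscle by 3.45 (SE 0.21, adjusted p = 3.07e-11) and Col18a1 by 0.62 (SE 0.15, adjusted p = 0.00112), where 33.4% of 9239 genes were called higher. The differences were -4.44 for Fbln5 (SE 0.22), -4.06 for Cytl1 (SE 0.26), -4.03 for Fbln2 (SE 0.19), -1.86 for Fbn1 (SE 0.25) and -0.60 for Mgp (SE 0.19, adjusted p = 0.0123), all lower in smooth muscle, where 29.8% of genes were called lower. Eln did not pass the test, at 0.12 (SE 0.19, adjusted p = 0.582): smooth muscle cells held 160, 167 and 238 CPM at 12 months and 395, 381, 247 and 285 CPM at 3 months, and arterial endothelium 598, 285 and 202 CPM at 12 months and 327, 275, 276 and 247 CPM at 3 months. The arterial class pools large-artery cells (mean 1032 CPM of Eln) and other arterial cells (103 CPM), and smooth muscle cells (268 CPM) lay between them. Smooth muscle also lay between large-artery and other arterial cells in Mgp (1704 between 9272 and 1201 CPM) and Col18a1 (179 between 265 and 116 CPM). It was not tested against either part alone. Without 12-month replicate 1, whose arterial cells held the most Eln, the Eln difference was 0.33 and was called (adjusted p = 0.0255), as it was in the repeated clustering (0.67, adjusted p = 0.0150). Endothelial markers in smooth muscle cells summed to 925 to 1775 CPM at 12 months and 626 to 1249 CPM at 3 months, and their part in the low Fbln5, Fbln2 and Cytl1 counts there was not tested. With marker-bearing cells left out Mgp was at -0.10 (adjusted p = 0.672) and Col18a1 at 0.37 (adjusted p = 0.0356). Mgp also lost its call in the repeated clustering (-0.05, adjusted p = 0.870) and with at most 10% mitochondrial UMIs (-0.39, adjusted p = 0.144), and stood at -1.02 with more doublets removed and -0.90 without 3-month replicate 4. Col18a1 was at 0.41 without that library and at 1.09 in the repeated clustering, called in both.

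Smooth muscle cells were also compared with pericytes. Eln was higher by 4.96 (SE 0.26, adjusted p = 4.72e-14), Col18a1 by 5.17 (SE 0.26), Emilin1 by 1.41 (SE 0.21) and Mgp by 1.25 (SE 0.18, adjusted p = 1.88e-06), where 24.1% of 6544 genes were called higher. Fbln2, Fbln5, Fbn1 and Cytl1 did not pass the filter. With the sums thinned to the smallest, the Eln difference was 8.24 (adjusted p = 3.48e-10), and at resolution 1.0 the Mgp difference was 0.74 (adjusted p = 6.93e-04). Without marker-bearing cells, which left 2 libraries at 12 months and 1 at 3 months, Eln (4.29) and Col18a1 (4.44) stayed called, while Emilin1 (0.70, adjusted p = 0.158) and Mgp (0.38, adjusted p = 0.0856) did not.

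**Figure D3:**
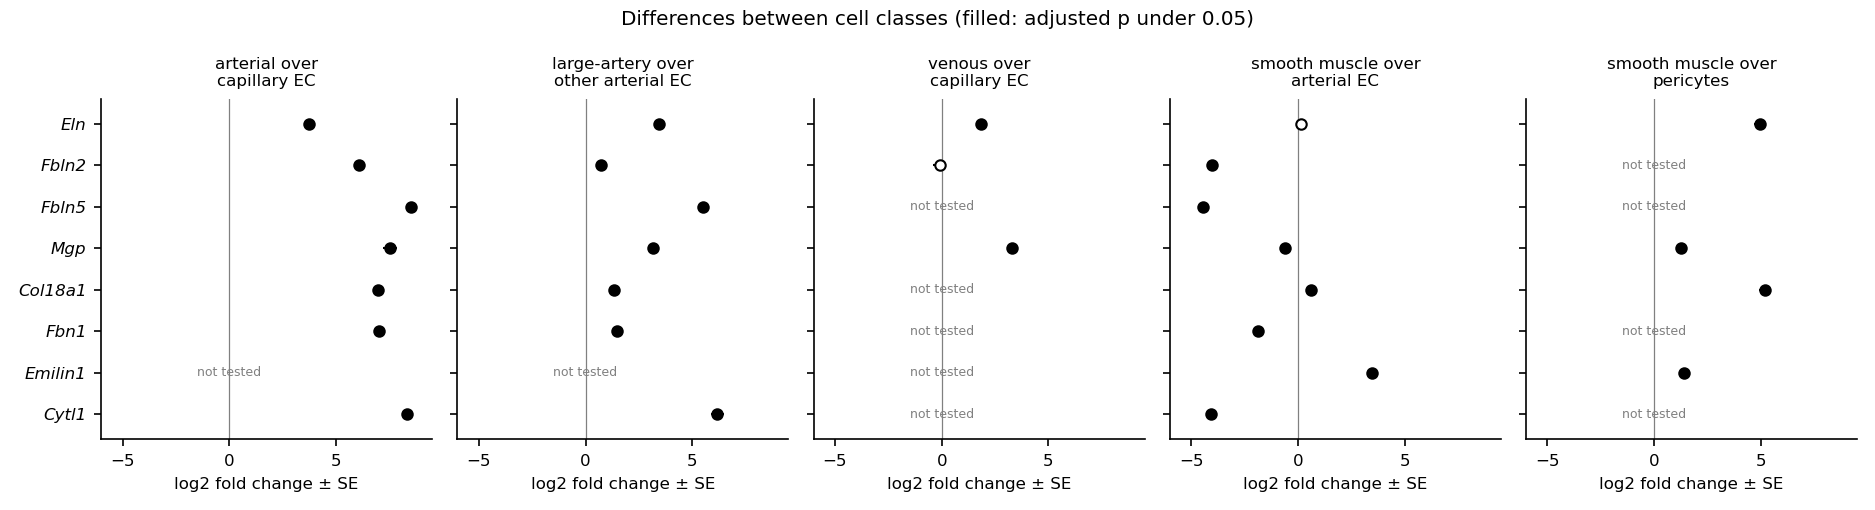
log2 fold change ± SE of the 8 genes in 5 comparisons of cell classes, edgeR's quasi-likelihood test over 7 libraries; filled points have an adjusted p under 0.05, and genes under the filter on low counts are marked as not tested. Between smooth muscle and arterial endothelium, Emilin1 and Col18a1 lie right of 0 and Fbln5, Cytl1, Fbln2, Fbn1 and Mgp left of it. Emilin1 has no point against capillary cells, where it was not tested.

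The partners of these genes were described by 6 lists of the elastic fibre pathway, in which the 8 members were not counted. Of 19 genes of the elastic scaffold and its assembly, 7 could be tested between arterial and capillary cells. Of these, 5 were higher in arterial cells and none was lower. The median log2 difference of the 7 was 1.32, against -0.0020 over all genes tested. Of all 10422 genes tested there, 22.1% were called higher, and 4382 were called in either direction. Bgn, the proteoglycan biglycan, was at 191 ± 178 CPM in arterial and 5.36 ± 1.05 CPM in capillary cells, and Ltbp4, a latent TGF-beta binding protein that takes part in elastic fibre assembly, at 1430 ± 129 CPM in arterial and 590 ± 119 CPM in capillary cells. Of 5 lysyl oxidases, which cross-link elastin, only Lox could be tested: it was at 20.4 ± 9.27 CPM in arterial and 0.168 ± 0.245 CPM in capillary cells, a log2 difference of 6.54. All 3 wall collagens tested of 9 (Col5a2, Col3a1 and Col8a1) were higher in arterial cells. Of 10 receptors, 3 of 7 tested were higher and 2 lower, with Itgb5, an integrin chain, higher by 1.80 and Itgav lower by -0.54. Of 11 proteases and inhibitors, 3 of 5 tested were higher, with the metalloprotease inhibitors Timp2 at 3.73 and Timp3 at 2.42. Of 8 genes of Gla modification and mineral control, 1 of 5 tested was higher: Alpl, a phosphatase that favours mineral deposition, at 482 ± 110 CPM in arterial and 41.1 ± 18.2 CPM in capillary cells.

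Large-artery cells were again higher than other arterial cells in the scaffold list (4 of 5 tested, none lower, median 0.88 against -0.0015 over all genes tested). Of all 6780 genes tested there, 12.9% were called higher, and 1624 were called in either direction. Bgn differed by 6.11, with 721 ± 302 CPM in large-artery and 11.5 ± 7.91 CPM in other arterial cells, and Lox by 4.47, with 79.5 ± 29.5 CPM in large-artery and 3.98 ± 1.69 CPM in other arterial cells. Alpl went the other way, at 378 ± 128 CPM in large-artery and 518 ± 90.8 CPM in other arterial cells (-0.39). In smooth muscle against arterial endothelium, 33.4% of all 9239 genes tested were called higher and 29.8% lower. In that contrast 5 scaffold genes of 8 tested were higher and 2 lower. Ltbp1 was higher by 4.43, while Mmrn2, an endothelial member of the Emilin family, was lower by -4.07 and Ltbp4 by -3.73. Both lysyl oxidases tested (Lox 1.33, Loxl2 1.81), 5 of 9 receptors, led by the smooth muscle integrin Itga8 (8.01), and 5 of 6 wall collagens, led by Col1a2 (7.63), were higher in smooth muscle cells. Of the same lists 2 receptors and 1 collagen were lower, as were 3 of 5 genes of Gla modification and mineral control, with Alpl at -4.09. Against pericytes, smooth muscle cells were higher in Ltbp1 (5.35), Lox (6.17) and Timp2 (4.93), with 2 scaffold genes of 7 tested higher and 3 lower. Among the lower 3, Vtn (-4.01) had also served to name pericytes. Of all 6544 genes tested between smooth muscle cells and pericytes, 3217 were called in either direction. In venous against capillary cells, 3 scaffold genes of 7 tested were higher and 4 lower, with a median of -0.41 against -0.014 over all genes tested, and the 1 collagen tested, Col5a2, was higher by 3.80. Of all 10985 genes tested there, 4276 were called in either direction.

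Among other genes with at least 10 CPM on average, the likeness to each member was measured as Pearson's r of log2(CPM + 1) over 35 sums, those of arterial, capillary and venous endothelial cells, smooth muscle cells and pericytes in each library. These sums share libraries and differ in depth, and the values are a description. Within the group, Fbln5 and Cytl1 were the most alike pair (r = 0.975), followed by Fbln2 and Fbln5 (0.939), while Emilin1 was least like Fbln2 (0.013). Outside it, Pi16, a secreted peptidase inhibitor that had also served to name large-artery cells, was the gene most like Cytl1 (0.950), Fbln5 (0.928) and Fbln2 (0.924). Cdh13 (T-cadherin) and Clu (clusterin) were next for both Fbln5 (0.921 and 0.901) and Cytl1 (0.915 and 0.907), and Egfl8 (0.921) and the naming gene Gkn3 (0.892) for Fbln2. Eln was most like Atp9a (0.902), Cd9 (0.892) and Ehd2 (0.873), Mgp like the calcium pump Atp2b4 (0.903), Sfxn1 (0.896) and Emp3 (0.891), and Fbn1 like Ccn3 (0.895), a naming gene of arterioles, Msx1 (0.888) and Syt15 (0.885). Col18a1 was most like Lox (0.963), Fhl1 (0.958) and Apba1 (0.940), and Emilin1 like Pdlim1 (0.942), Osbpl5 (0.927) and Parp3 (0.926). With log2(CPM + 10) in place of log2(CPM + 1), 16 of the matches to genes outside the group stayed. Col18a1 kept 1 of its 3, Fhl1, and not Lox. Emilin1 kept 1 of its 3, Pdlim1.

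Fbln5 and Cytl1 were the pair most alike in pattern over the 35 sums (r = 0.975). Col18a1 was less like them (0.768 and 0.761): it was higher in arterial than in capillary cells too, but also high in smooth muscle. The 250 bases before the start of these 3 genes are therefore shown (RefSeq, GRCm38.p6). Promoters were given for 6 of the 8 members, not for Eln and Mgp. Capitals mark CACCC, the core letters bound by KLF factors, and TGGGAA, those bound by RBPJ of the Notch pathway, on either strand (GGGTG and TTCCCA on the other). On both strands the windows were also searched for GGGCGG, the letters bound by SP1. Other letters searched were CAGAC, which SMAD proteins bind. A further search was for ACAAT, bound by SOX factors. The last motif was TATAAA, known as the TATA box. The windows are chr5:37735269-37735518 on the plus strand for Cytl1, chr12:101819120-101819369 on the minus strand for Fbln5 and chr10:77166531-77166780 on the minus strand for Col18a1, the last 2 at the first of 2 start sites.
Cytl1: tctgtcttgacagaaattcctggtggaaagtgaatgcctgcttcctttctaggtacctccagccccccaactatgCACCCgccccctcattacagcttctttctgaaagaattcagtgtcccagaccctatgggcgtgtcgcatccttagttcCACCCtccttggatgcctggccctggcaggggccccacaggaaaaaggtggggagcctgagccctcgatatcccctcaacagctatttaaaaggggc
Fbln5: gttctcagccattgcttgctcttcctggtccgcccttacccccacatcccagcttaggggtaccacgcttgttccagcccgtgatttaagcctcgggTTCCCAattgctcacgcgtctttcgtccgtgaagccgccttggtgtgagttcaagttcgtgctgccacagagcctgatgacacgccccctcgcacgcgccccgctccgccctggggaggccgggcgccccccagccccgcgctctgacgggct
Col18a1: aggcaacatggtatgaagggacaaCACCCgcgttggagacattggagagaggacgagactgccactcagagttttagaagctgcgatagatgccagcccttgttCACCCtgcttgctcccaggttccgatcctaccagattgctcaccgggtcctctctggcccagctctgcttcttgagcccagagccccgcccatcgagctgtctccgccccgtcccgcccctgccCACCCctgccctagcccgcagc
Cytl1 held CACCC 175 and 97 bases before its start, the first of them sharing bases with GGGCGG on the other strand, and CAGAC at 129. Col18a1 held CACCC at 226, 146 and 22 bases before its start and GGGCGG on the other strand at 61, 43 and 33. Fbln5 held TGGGAA on the other strand at 153, and GGGCGG there at 221 and 48. Of 32851 mouse promoters of the same length, 52% held CACCC, 21.6% TGGGAA, 32.7% the SP1 letters and 42.2% the SMAD letters. The SOX letters, which 27.7% held, and the TATA box, which 12.4% held, were in none of the 3 windows shown. A match is a description of the letters, not a site. The share of G and C was 54.8% for Cytl1, 65.2% for Fbln5 and 62% for Col18a1, against a median of 52.4% over all promoters.

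Between the ages, Mgp was without overlap in more classes than any other member. Over the 9 classes in which it averaged at least 5 CPM, every 12-month library was above every 3-month library in 6 classes: other arterial, arteriolar, Olfm5-led, venous and fenestrated endothelium and pericytes. The share of all genes with such a gap upward was 3.83% in other arterial, 3.88% in arteriolar, 5.01% in Olfm5-led, 4.24% in venous and 3.85% in fenestrated cells and 3.73% in pericytes. Arteriolar cells held 313, 175 and 93.0 CPM of Mgp at 12 months, against 26.7, 55.1, 46.4 and 16.9 CPM at 3 months. Venous cells held 377, 280 and 191 CPM at 12 months, against 82.8, 66.6, 92.9 and 128 CPM at 3 months. Neither class had any overlap of the ages. In large-artery, capillary and smooth muscle cells the ages overlapped, and the level in large-artery cells averaged 8796 ± 2034 CPM at 12 months (n = 3) and 9628 ± 1562 CPM at 3 months (n = 4, SD).

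By edgeR's quasi-likelihood test with Benjamini-Hochberg adjustment, Mgp was higher at 12 months in venous cells by 1.72 on the log2 scale (SE 0.26, adjusted p = 0.0020), where 2.05% of 10369 genes were called higher, and in arteriolar cells by 2.36 (SE 0.37, adjusted p = 0.00179), where 1.15% of 9570 were. Both calls held without any 1 library, between 1.45 and 1.94 in venous cells and between 1.99 and 2.74 in arteriolar cells. The test in arteriolar cells was added to the planned comparisons. Thinned sums, other cell filters and resolution 1.0 were not run for it. No arteriolar class formed in the repeated clustering, so the arteriolar call could not be repeated there. In other arterial cells Mgp was at 2225, 1561 and 1378 CPM at 12 months, against 769, 768, 992 and 712 CPM at 3 months, and was higher by 1.12 (SE 0.21, adjusted p = 0.0127; 0.893% of 9964 genes were called higher). That call was lost without 12-month replicate 1 (0.92, adjusted p = 0.0877) and without 3-month replicate 4 (1.04, adjusted p = 0.0822). In capillary cells Mgp was at 62.7, 37.1 and 10.5 CPM at 12 months, against 4.13, 19.1, 8.36 and 6.0 CPM at 3 months, and did not pass (1.87, adjusted p = 0.0866). No member was called in capillary cells by edgeR, where 3.33% of 11592 genes were called; 1, Mgp, had an unadjusted p under 0.05, and DESeq2 called 0. Without 12-month replicate 3 Mgp was called there (2.39, adjusted p = 0.0153), as it was without 3-month replicate 2 (2.47, adjusted p = 0.0136) and with the sums thinned to the smallest (2.03, adjusted p = 0.0257). Microglia in the same libraries held 19, 49.5 and 13.7 CPM of Mgp at 12 months, against 1.88, 15.4, 8.09 and 5.24 CPM at 3 months. The part of such background in the age differences of Mgp in any class was not tested. With capillary cells that bear smooth muscle, pericyte or fibroblast markers left out, the capillary difference was 0.64 (adjusted p = 0.581). No cell was left out for microglia markers. This check kept 646 of 1026, 575 of 1888 and 2053 of 3243 capillary cells at 12 months. At 3 months it kept 854 of 1642, 489 of 1746, 930 of 2593 and 562 of 1593.

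Some marker sums of other cell types moved with age in the same classes. Microglia markers summed higher in every 12-month than in every 3-month library in venous cells (43.4 to 99.9 CPM at 12 months and 30.7 to 41.8 CPM at 3 months), arteriolar cells (91.6 to 207 CPM at 12 months and 36.1 to 57.4 CPM at 3 months), other arterial cells (70.5 to 141 CPM at 12 months and 20.7 to 64.3 CPM at 3 months) and pericytes (77.0 to 327 CPM at 12 months and 38.5 to 75.1 CPM at 3 months). In venous cells, smooth muscle markers summed to 158 to 200 CPM at 12 months and 143 to 208 CPM at 3 months, with up to 2 of 10 at 0 at 12 months and up to 3 at 3 months, and pericyte markers to 29.9 to 72.7 CPM at 12 months and 22.5 to 39.5 CPM at 3 months, both with overlap. Fibroblast markers in venous cells summed to 446 to 843 CPM at 12 months and 288 to 377 CPM at 3 months, of which Apod, also made by other cells, gave a mean of 651 CPM at 12 months and 334 CPM at 3 months, while Dcn was at 1.96 CPM at 12 months and 0.405 CPM at 3 months. In arteriolar cells, pericyte markers summed to 36.8 to 185 CPM at 12 months and 29.2 to 55.4 CPM at 3 months, and smooth muscle markers to 107 to 202 CPM at 12 months and 105 to 127 CPM at 3 months, both with overlap. Astrocyte markers in arteriolar cells were lower in every 12-month library, at 52.1 to 66.8 CPM at 12 months and 101 to 134 CPM at 3 months. Other arterial cells held smooth muscle markers at 201 to 329 CPM at 12 months and 136 to 183 CPM at 3 months. The part of these transcripts in the difference in Mgp was not tested.

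In arterial cells as a whole no member was called between the ages by edgeR's quasi-likelihood test, where 0.378% of 10313 genes were called; 3 had an unadjusted p under 0.05 (Col18a1, Cytl1 and Emilin1), and DESeq2 called 0. Col18a1 differed by 0.61 (adjusted p = 0.452), Cytl1 by 1.22 (adjusted p = 0.603), Emilin1 by 0.92 (adjusted p = 0.608) and Mgp by 0.55 (adjusted p = 0.774). Without a filter beyond 1 count, Cytl1 was called (1.21, adjusted p = 1.71e-05). The make-up of the class differed between libraries: large-artery cells were 41.8%, 17.6% and 14.7% of arterial cells at 12 months, against 22.8%, 18.4%, 13.1% and 16.5% at 3 months. Large-artery and other arterial cells were therefore also tested apart, a choice made after those shares were seen. In large-artery cells alone no member was called by edgeR, where 0.0487% of 6165 genes were; none had an unadjusted p under 0.05 and DESeq2 called 0. In other arterial cells Cytl1 was higher at 12 months beside Mgp: it was at 122, 13.8 and 10.5 CPM at 12 months, against 0, 1.14, 3.22 and 0.987 CPM at 3 months, a log2 difference of 4.48 (SE 0.85, adjusted p = 0.0119). Without 12-month replicate 1 it was 2.98 (adjusted p = 0.0160), and in the repeated clustering it was 1.37 and not called (adjusted p = 0.271), while Mgp stayed called there (1.13, adjusted p = 0.0384). The difference between the ages was smaller in large-artery than in other arterial cells for both genes, by -1.26 for Mgp (SE 0.16, adjusted p = 1.56e-05) and by -3.52 for Cytl1 (SE 0.55, adjusted p = 1.79e-04), in a fit of the interaction of class and age with the library as a term, in which 0.335% of 7751 genes were called lower. In the repeated clustering Mgp was at -1.0 (adjusted p = 0.00707) and Cytl1 lost the call at -0.52 (adjusted p = 0.656). Without 12-month replicate 1 the Cytl1 value was -2.53 (adjusted p = 5.64e-04). Fbln5 was at -0.88 and not called by edgeR's quasi-likelihood test (adjusted p = 0.0871), but was under DESeq2 (-0.90, adjusted p = 0.0265), without a filter beyond 1 count (-0.87, adjusted p = 0.0115) and without 3-month replicate 1 (-1.01, adjusted p = 0.0249); in the repeated clustering it was -0.33 (adjusted p = 0.712).

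Emilin1, the elastin and microfibril glycoprotein, was called with age in venous cells. It was at 7.47, 13.1 and 12.3 CPM at 12 months, against 1.55, 2.67, 2.66 and 1.03 CPM at 3 months, a log2 difference of 2.59 (SE 0.36, adjusted p = 9.75e-04). In the repeated clustering Emilin1 was at 2.57 (adjusted p = 0.00112) and Mgp at 1.73 (adjusted p = 0.00263) in venous cells. All 12-month values stood above all 3-month values, and Emilin1 in microglia was at 1.65, 5.50 and 0.444 CPM at 12 months, against 1.88, 2.80, 0 and 3.49 CPM at 3 months, with overlap. Fenestrated cells showed the same order, with 58.9, 64.1 and 25.2 CPM at 12 months, against 19.5, 12.2, 17.7 and 8.41 CPM at 3 months, and were not tested. Whether the age difference in veins differed from that in capillaries was tested in an interaction fit chosen after the values were seen, and no member was called (Mgp -0.10, adjusted p = 0.926; Emilin1 1.23, adjusted p = 0.328; 3.6% of 11652 genes were called by edgeR's quasi-likelihood test). None had an unadjusted p under 0.05, and DESeq2 called 0. The Mgp value ran from -0.80 without 3-month replicate 2 to 0.25 without 3-month replicate 4.

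**Figure D4:**
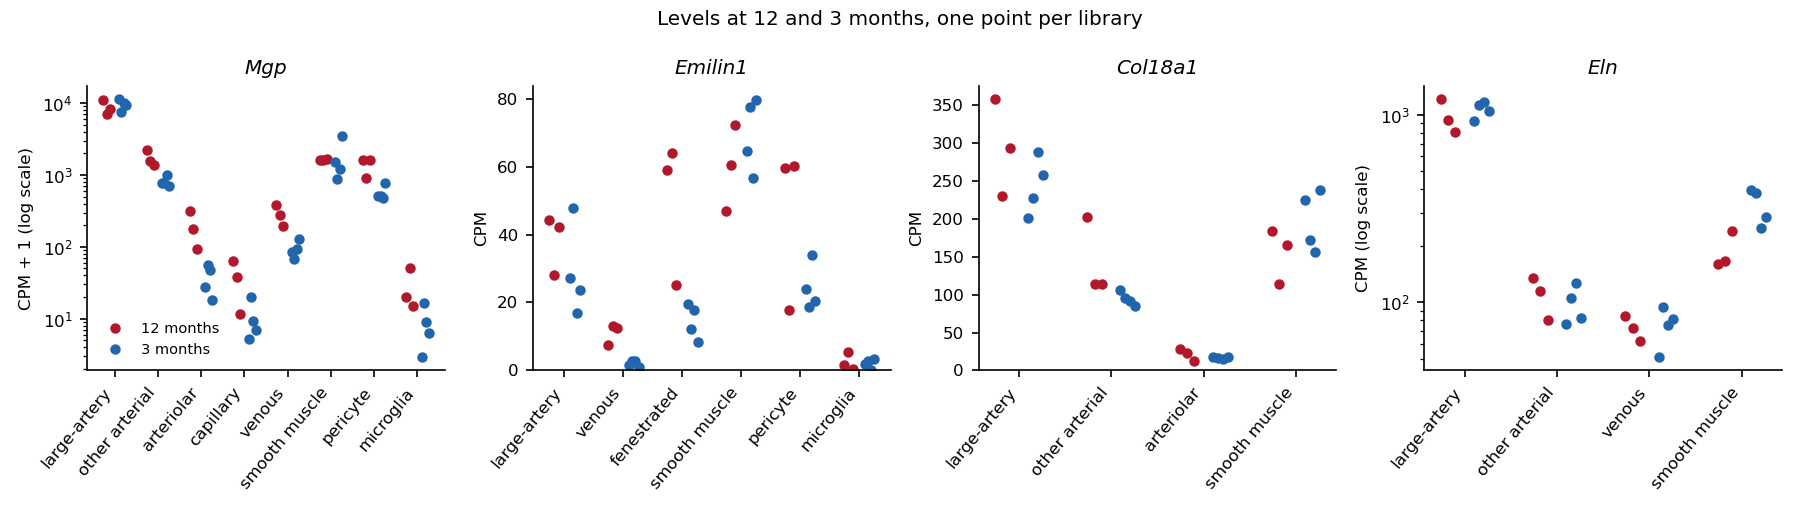
CPM of Mgp, Emilin1, Col18a1 and Eln in classes that hold them, one point per library, 12 months left of 3 months; the axes of Mgp (CPM + 1) and Eln are logarithmic and the others linear. Mgp is higher in all 12-month libraries in other arterial, arteriolar and venous cells and in pericytes but overlaps in large-artery cells, and Eln in smooth muscle cells is lower in all 12-month libraries.

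In smooth muscle cells the order of the ages was the reverse for Eln. All 3 libraries at 12 months (160, 167 and 238 CPM) lay below all 4 at 3 months (395, 381, 247 and 285 CPM), as did 3.87% of 9859 genes, but the difference did not pass adjustment (log2 difference -0.82, SE 0.24, adjusted p = 0.320, edgeR's quasi-likelihood test). Without a filter beyond 1 count it did (-0.85, adjusted p = 0.0386). No member was called in smooth muscle cells by edgeR, where 0.163% of 8568 genes were called; 2 had an unadjusted p under 0.05 (Eln and Fbln2) and DESeq2 called 0. Fbn1 was also lower in every 12-month library, at 3.90, 3.57 and 3.61 CPM, against 12.9, 4.22, 6.60 and 11.7 CPM at 3 months, and did not pass the filter. Fibroblast markers in smooth muscle cells summed to 117 to 162 CPM at 12 months and 272 to 368 CPM at 3 months, with 5 or 6 of 10 at 0, smooth muscle markers to 35639.8 to 44939 CPM at 12 months and 40240.5 to 57560.9 CPM at 3 months, endothelial markers to 925 to 1775 CPM at 12 months and 626 to 1249 CPM at 3 months, and microglia markers to 52.6 to 215 CPM at 12 months and 25.8 to 42.9 CPM at 3 months. With smooth muscle cells that bear fibroblast markers left out, the Eln difference was -0.07 (adjusted p = 0.978). Smooth muscle cells with endothelial or microglia markers were not left out on that ground. Mgp in the same class turned to 0.37 without 3-month replicate 4, whose 3440 CPM stood above the 876 to 1526 CPM of the other 3-month libraries, against -0.13 with it, neither called.

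The age difference in Col18a1 differed between smooth muscle and arterial endothelium. Smooth muscle cells held 183, 114 and 166 CPM at 12 months, against 225, 172, 156 and 238 CPM at 3 months. Other arterial cells held 202.5, 115 and 115 CPM at 12 months, against 106, 95.2, 92.0 and 84.4 CPM at 3 months, and arterial cells as a whole 269.5, 139 and 144 CPM at 12 months, against 134, 117, 120 and 114 CPM at 3 months. Large-artery cells held 230 to 358 CPM of Col18a1 at 12 months, against 201 to 288 CPM at 3 months. The ages overlapped in smooth muscle and large-artery cells and not in other arterial cells. The values of arterial cells as a whole also carry the share of large-artery cells, which was 41.8% in 12-month replicate 1, and the part of that share in the interaction was not tested. The interaction was -0.95 (SE 0.19, adjusted p = 0.00772, edgeR's quasi-likelihood test with Benjamini-Hochberg adjustment), where 0.459% of 10237 genes were called lower. It was lost without 12-month replicate 2 (-0.94, adjusted p = 0.0869), under DESeq2 (-0.96, adjusted p = 0.0731) and without marker-bearing cells (-0.34, adjusted p = 0.827). Eln had an interaction of -0.98 (SE 0.26, adjusted p = 0.0716), which was not called. Without 12-month replicate 1 it was -0.57 (adjusted p = 0.249), and under DESeq2 -1.06 (adjusted p = 0.614). It was called without 12-month replicate 3 (-1.47, adjusted p = 5.44e-04), without 3-month replicate 3 (-1.11, adjusted p = 0.0234) and in the repeated clustering (-1.32, adjusted p = 0.00697), and also with thinned sums, at most 10% mitochondrial UMIs, more doublets removed or no filter (between -1.18 and -0.99). In the repeated clustering the interaction of Col18a1 was -1.25 (adjusted p = 5.10e-04).

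In pericytes, Mgp was at 1607, 905 and 1606 CPM at 12 months, against 510, 502, 480 and 780 CPM at 3 months, without overlap. No member was called there by edgeR, where 0.085% of 7062 genes were called: Mgp differed by 1.19 (SE 0.29, adjusted p = 0.172) and alone had an unadjusted p under 0.05, and DESeq2 called 1, Mgp (1.18, adjusted p = 0.0365). Mgp was called too with thinned sums (1.58, adjusted p = 0.0420) and without a filter (1.15, adjusted p = 0.0475). At resolution 1.0 the Mgp difference was 0.32 (adjusted p = 0.968), and without 12-month replicate 3 it was 0.99 (adjusted p = 0.920). Pericyte markers summed to 19224 to 34105 CPM at 12 months and 13411 to 18809 CPM at 3 months in these cells. Among the pathway genes, Itgb5, the integrin chain named above, was higher at 12 months in arterial cells (19.4 ± 7.35 CPM at 12 months and 4.62 ± 1.44 CPM at 3 months, log2 difference 2.07, adjusted p = 0.0163), in other arterial cells (2.07), in arteriolar cells (2.02) and in capillary cells (1.71). It was the only gene of the 6 lists called in arterial cells. Efemp2, the gene of fibulin-4, another protein needed for elastic fibre assembly, was higher at 12 months in capillary (34.4 ± 3.18 CPM at 12 months and 16.5 ± 1.70 CPM at 3 months, 1.17), arteriolar (0.85) and other arterial cells (0.88). Efemp1, the gene of fibulin-3, was higher in venous cells, at 5.50 ± 1.06 CPM at 12 months and 0.604 ± 0.436 CPM at 3 months (3.20). In smooth muscle cells, Col3a1 was the 1 gene of the lists called, at 34.6 ± 7.44 CPM at 12 months and 93.4 ± 24.1 CPM at 3 months (log2 difference -1.51, adjusted p = 0.0217). Ctss, the gene of cathepsin S, an elastin-degrading protease of microglia and other myeloid cells, was higher at 12 months in capillary (2.5), arteriolar (2.68) and venous cells (2.58). Microglia markers summed to 71.7 to 178 CPM at 12 months and 35.3 to 54.1 CPM at 3 months in capillary cells. The part of microglia transcripts in the Ctss and Itgb5 counts was not tested. Of the scaffold list, 2 of 8 genes tested were higher at 12 months in capillary cells (Efemp2 and Vtn, 1.83), 2 of 7 in other arterial, 1 of 4 in arteriolar and 1 of 6 in venous cells, with none lower. Over all genes tested, 0.893% were called higher in other arterial, 1.15% in arteriolar and 2.05% in venous cells. In capillary cells 3.33% were called in either direction. Vtn had also served to name pericytes, and the part of pericyte transcripts in its capillary counts was not tested.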

How the data were processed

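The deposited files hold counts of UMIs per gene and cell barcode for each of the 7 libraries. Per the submitters' processing notes, Cell Ranger was used in versions 4.0.0 and 6.1.1 with mm10, and the file headers tie the first to the 12-month and the second to the 3-month libraries. Barcodes with at least 500 genes and at most 15% mitochondrial UMIs were kept, and the most doublet-like 0.8% per 1000 barcodes, scored with scrublet in scanpy 1.11.5, were removed, which left 37134 of 43091. Library totals were 8706961 to 44861008 UMIs. Cells were integrated and clustered with Seurat 5.3.0 (2000 variable features, 30 components, resolution 0.5), without the 8 genes and the pathway lists, and clusters were named from marker lists. Endothelial clusters depended on the arithmetic kernel of the linear algebra library, so a repeat on another kernel was added as an alternative after runs were seen to differ. UMIs were summed per library and class where at least 20 cells were present. Sums were tested in R 4.3.3 with edgeR 4.0.16 (TMM scaling, filterByExpr, quasi-likelihood test, library as a term between classes, Benjamini-Hochberg adjustment over all genes tested, threshold 0.05), after a test on simulated data; DESeq2 1.42.0 was an alternative. The genes, lists and comparisons were chosen with earlier results of these data known. Named are all 8 members, of each list in each comparison up to 4 called genes with the smallest p, and for each member the 3 genes with the highest r among genes with a mean of at least 10 CPM (members left out, as were sex-linked, ribosomal, mitochondrial and predicted genes). The labels tell apart samples but no litters or batches, so p-values measure the spread between these samples. Replicate numbers did not pair samples. Depth limits what can be seen: a count of 0 in a library allows up to 3 UMIs, for counting error only.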

Additional observations from a re-analysis of the deposited data

Results flagged for a closer look

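In large-artery cells, Fbln5 of 3-month replicate 4 stood apart at 2239 CPM, with the other 3-month libraries between 1261 and 1381 CPM. In pericytes, Mgp of 3-month replicate 4 was at 780 CPM, with the others between 480 and 510 CPM. Each gap exceeded Dixon's critical value for 4 samples. Of 42 groups of libraries examined, these 2 did so, and chance alone gives about 1 in 20.

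The difference between 12 and 3 months was not the same in all classes for 3 genes, by tests of the difference itself (edgeR's quasi-likelihood test with Benjamini-Hochberg adjustment). For Col18a1 it was lower in smooth muscle than in arterial endothelial cells by -0.95 on the log2 scale (adjusted p = 0.00772). That call was lost without 12-month replicate 2 (-0.94, adjusted p = 0.0869), under DESeq2 (-0.96, adjusted p = 0.0731) and without marker-bearing cells (-0.34, adjusted p = 0.827). For Mgp it was lower in large-artery than in other arterial cells by -1.26 (adjusted p = 1.56e-05), and for Cytl1 by -3.52 (adjusted p = 1.79e-04). With the clustering repeated on another arithmetic kernel, the Cytl1 value was -0.52 (adjusted p = 0.656). Between 44 and 277 large-artery cells were summed per library.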

How the results depend on the processing

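Of 556 alternative values of members that were called, 543 kept direction and call, 13 lost the call and 0 reversed; of 766 values of members that were not called, 691 stayed so, 22 became called and 53 reversed. With sums thinned to the smallest, genes called numbered 2718 between arterial and capillary cells, 2305 between venous and capillary, 3848 between smooth muscle and arterial, 884 between smooth muscle and pericytes, and with age 168 in capillary, 160 in venous, 8 in smooth muscle cells and 2 in pericytes; members called were 1 in capillary cells, 1 in venous cells, 1 in pericytes and 2 in the interaction of smooth muscle and arterial cells. Leaving out marker-bearing cells, as defined above, gave 2161, 423, 3106 and 1573 genes in the same class comparisons. It gave 358 between large-artery and other arterial cells and 45 in the interaction. Members called were 4 between smooth muscle and arterial cells, 2 between smooth muscle and pericytes and 0 in the interaction. It kept 2 libraries, both at 12 months, in the venous comparison and 3 in the pericyte comparison. In the large-artery comparison it kept 3, all at 12 months. Age in venous cells and pericytes could not be fitted. Without a filter beyond 1 count, genes called with age were 330 in arterial, 1051 in capillary, 682 in venous, 102 in smooth muscle cells, 57 in pericytes and 175 in the interaction, and members called 1, 2, 2, 1, 1 and 2, with 8 between smooth muscle and pericytes. DESeq2 called 109 genes with age in arterial cells, 30 in the interaction, 1 member in pericytes and 0 in the interaction. A filter at 10 CPM gave 166 genes in capillary and 163 in venous cells, with 1 member. At most 10% mitochondrial UMIs gave 5 genes in smooth muscle cells and 2 members in the interaction, as did doubled doublet removal, which gave 3 genes in pericytes. The replicate numbers are only labels: same-numbered libraries correlated between -0.0683 and 0.264, and in 0 of 5 classes were all pairs above 0.1. With the replicate block, 180 genes were called in capillary and 7 in smooth muscle cells, and 1 member in other arterial cells, where Mgp lost its call (1.02, adjusted p = 0.0784). With the clustering repeated on another arithmetic kernel, chosen after runs were seen to differ, 128 genes were called with age in arterial cells and 149 in the interaction of smooth muscle and arterial cells. Members called were 2 in that interaction, 1 with age in other arterial cells and 1 in the interaction of large-artery and other arterial cells; no arteriolar class formed, so its age test could not be made. Reversed with age there were Fbln2 in arterial (0.30), large-artery (-0.17) and other arterial cells (0.23), Eln (0.017), Mgp (0.14) and Fbn1 (0.10) in large-artery cells and Fbln2 between large-artery and other arterial cells (-0.42). Emilin1 in venous cells could not be tested with the 10 CPM filter or thinned sums. The other values that reversed were not called: Fbln2 between venous and capillary cells (0.16 at 1000 genes per cell), Eln between smooth muscle and arterial cells (-0.0088 thinned, -0.0058 unfiltered, -0.063 at resolution 1.0), and with age Fbln2 in arterial (0.013 with DESeq2, 0.026 at 1000 genes, 0.023 with more doublets removed, 0.11 with the replicate block) and capillary cells (-0.26 at 1000 genes), Eln in venous cells (-0.088 thinned, -0.018 at 1000 genes), Mgp in smooth muscle cells (0.20 at 1000 genes, 0.25 at 10% mitochondrial, 0.47 without marker-bearing cells, 0.41 with the replicate block), Col18a1 there (0.38 without marker-bearing cells), Emilin1 in pericytes (-0.033 at 1000 genes), Fbn1 in large-artery cells (0.18 with the block) and Cytl1 in the interaction (0.14 at 10% mitochondrial, 0.65 without marker-bearing cells); the cause was not tested.

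Leaving out 1 library at a time gave between 3764 and 4695 genes between arterial and capillary cells, 3323 and 4309 between venous and capillary, 5323 and 6043 between smooth muscle and arterial, 2865 and 3359 between smooth muscle and pericytes and 1346 and 1610 between large-artery and other arterial cells. With age it gave 14 to 97 in arterial, 179 to 648 in capillary, 83 to 448 in venous and 2 to 26 in smooth muscle cells, 2 to 14 in pericytes and 25 to 109 in the interaction. Members called ranged from 0 to 1 in capillary cells, 0 to 2 in the interaction and 1 to 2 in other arterial cells. Uncalled values that changed sign ran from -0.39 to 0.093 for Fbln2 between venous and capillary cells, from -0.067 to 0.33 for Eln between smooth muscle and arterial cells (called at its highest) and from -1.32 to 0.11 for Cytl1 in the interaction. With age, arterial cells gave -0.17 to 0.66 for Eln, -0.14 to 0.12 for Fbln2 and -0.45 to 0.58 for Fbln5, capillary cells -0.15 to 0.38 and arteriolar cells -0.032 to 0.51 for Fbln2, and venous cells -0.049 to 0.18 for Eln. Large-artery cells gave -0.052 to 0.15 for Fbln2 and -0.19 to 0.18 for Fbn1, smooth muscle cells -0.35 to 0.37 for Mgp, pericytes -0.23 to 1.25 for Emilin1, and the interaction of venous and capillary cells -0.80 to 0.25 for Mgp.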
